A study of Homo sapiens with 6 samples.

Results

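The regions described here are the ATAC-seq peaks of human chromosome 19 that lie away from its zinc finger genes. A peak was taken when its midpoint was more than 1 kb from any protein-coding RefSeq gene named ZNF plus a number, and overlapping peaks of the 6 samples (1 bp or more) were merged. This gave 4000 regions of the 102786 regions in the whole series, against 446 regions of the same chromosome at ZNF genes, 4523 on chromosome 17 and 2103 on chromosome 22. In DMSO they held 2834, 3150 and 2967 peaks, and in APH 3086, 3236 and 2937.

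Chromosome 19 is the human chromosome most crowded with genes. Besides its long arrays of KRAB zinc finger genes it carries many genes that every cell uses, such as those of ribosomal proteins, splicing factors and DNA repair enzymes, and clusters of genes that only certain tissues use, such as the kallikreins, the pregnancy-specific glycoproteins, the killer cell receptors and the olfactory receptors. In ATAC-seq the Tn5 transposase inserts adapters where DNA is not wrapped in nucleosomes, so a peak marks an accessible promoter, enhancer or other regulatory element.

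All samples were RKO cells, a colon cancer line obtained from ATCC and grown in DMEM with serum in 5% O2. Of the 6 samples, 3 were treated with 0.2 µM aphidicolin (APH), an inhibitor of the replicative DNA polymerases, for 16 h to cause low replication stress, and 3 were treated with DMSO. The study asked whether this stress alters chromatin accessibility. The study describes the ATAC-seq as 3 independent experiments, while the labels do not say which samples were cultured together.

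The lists held 64511 to 77194 peaks per DMSO sample and 70121 to 84510 per APH sample. Each peak has a value, the mean of a coverage map over the peak, and the depth of the libraries is unknown. The mean over all peaks was 78.3 to 85.2 in DMSO and 69.4 to 73.0 in APH, so values are given below relative to the mean of all peaks of the same sample ("relative value") unless said otherwise. Of 14 epithelial and colon marker genes, EPCAM, CDX2 and CLDN3 had a peak within 1 kb of the start in all 6 samples and 9, among them CDH1, KRT8 and VIL1, had none in any. None of the 5 blood cell markers had a peak, and of the 4 fibroblast and endothelial markers that could be assessed COL1A1 and COL1A2 had a peak in all 6 samples, PDGFRB in 1 and CDH5 in none. For single values the smallest p that the design of 3 and 3 samples allows is 0.1.

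The promoters below, from the RefSeq sequences of GRCh38.p14, show the range of gene starts on which the results turn. Each runs 5′ to 3′ on the gene's strand from 250 bases before the first listed start to 50 after it. Capitals mark matches, on either strand, to short motifs of common promoter factors (SP1 GGGCGG, NF-Y CCAAT, CRE TGACGTCA, AP-1 TGACTCA, ETS CCGGAAG, NRF1 GCGCATGC and E-box CACGTG). TOMM40 (chr19:44891004-44891303, plus strand) and FEM1A (chr19:4791484-4791783, plus strand) have the strongest promoter regions of the set. CARM1 (chr19:10871303-10871602, plus strand) had the lowest APH value relative to DMSO among the genes of replication and chromatin, and BSG (chr19:571033-571332, plus strand) the highest among the genes of growth and stress. GDF15 (chr19:18385908-18386207, plus strand) had a promoter peak in the APH samples only, and KLF1 (chr19:12887152-12887451, minus strand), a factor of red blood cell precursors, had none.
TOMM40: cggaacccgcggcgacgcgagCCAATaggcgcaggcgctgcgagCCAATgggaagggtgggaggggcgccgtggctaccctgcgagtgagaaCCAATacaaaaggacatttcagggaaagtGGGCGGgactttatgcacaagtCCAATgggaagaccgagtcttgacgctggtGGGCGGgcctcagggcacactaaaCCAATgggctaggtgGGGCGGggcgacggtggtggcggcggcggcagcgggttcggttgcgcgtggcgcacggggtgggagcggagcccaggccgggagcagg
FEM1A: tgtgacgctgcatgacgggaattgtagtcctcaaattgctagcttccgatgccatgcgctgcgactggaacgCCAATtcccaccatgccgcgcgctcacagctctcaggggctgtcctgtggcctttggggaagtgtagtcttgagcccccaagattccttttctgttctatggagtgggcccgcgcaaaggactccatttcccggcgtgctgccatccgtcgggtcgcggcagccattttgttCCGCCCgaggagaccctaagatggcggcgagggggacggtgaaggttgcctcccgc
CARM1: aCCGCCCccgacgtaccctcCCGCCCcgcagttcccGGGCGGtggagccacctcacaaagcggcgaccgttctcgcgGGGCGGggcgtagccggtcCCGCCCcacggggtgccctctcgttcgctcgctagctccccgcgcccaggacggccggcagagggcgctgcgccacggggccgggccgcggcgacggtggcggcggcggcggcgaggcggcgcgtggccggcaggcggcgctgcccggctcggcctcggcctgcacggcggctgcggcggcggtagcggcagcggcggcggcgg
BSG: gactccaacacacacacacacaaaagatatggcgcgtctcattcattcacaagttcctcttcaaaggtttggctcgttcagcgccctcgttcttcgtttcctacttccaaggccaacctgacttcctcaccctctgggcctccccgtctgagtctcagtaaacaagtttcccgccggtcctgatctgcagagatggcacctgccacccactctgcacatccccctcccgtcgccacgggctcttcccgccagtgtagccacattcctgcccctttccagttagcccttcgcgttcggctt
GDF15: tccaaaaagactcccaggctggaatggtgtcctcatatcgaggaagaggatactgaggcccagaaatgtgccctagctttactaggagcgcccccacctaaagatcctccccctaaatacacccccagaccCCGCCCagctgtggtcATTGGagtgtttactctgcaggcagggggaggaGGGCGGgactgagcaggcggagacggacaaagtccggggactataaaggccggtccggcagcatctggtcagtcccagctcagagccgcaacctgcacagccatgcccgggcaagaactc
KLF1: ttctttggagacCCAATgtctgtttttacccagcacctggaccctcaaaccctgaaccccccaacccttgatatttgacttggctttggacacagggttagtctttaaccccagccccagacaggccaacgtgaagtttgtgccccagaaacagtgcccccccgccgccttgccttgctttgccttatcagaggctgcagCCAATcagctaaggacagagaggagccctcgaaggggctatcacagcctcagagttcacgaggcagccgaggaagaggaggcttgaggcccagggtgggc
The promoters of TOMM40 and CARM1 differ in make-up although both were accessible. The first has 5 NF-Y and 3 SP1 matches at 67.3% GC, and the second has 5 SP1 matches, no NF-Y match and 82.3% GC. FEM1A has 1 match of each at 60.7% GC. BSG has no match to any motif at 56.7% GC, GDF15 has 2 SP1 matches and 1 NF-Y match at 59.3%, and KLF1 has 2 NF-Y matches and 6 CpG dinucleotides at 57% GC.

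Of the 1143 protein-coding genes outside the ZNF genes, 952 had a promoter in the RefSeq table. Among these, the promoters of the 508 genes with a peak in all 6 samples had a median GC content of 66.3% and 27 CpG dinucleotides, and those of the 367 genes without a peak had 60.7% and 9. SP1 matches stood in 79.1% of the former and 46.0% of the latter, and ETS matches in 19.7% and 3.81%. On the other chromosomes the same groups had SP1 matches in 73.4% and 35.0%, ETS matches in 21.3% and 3.54%, and a median of 27 and 7 CpG dinucleotides. Their median GC content was 65.7% and 54.7%, a wider gap than on chromosome 19. NF-Y matches were in 41.9% and 31.9% of the promoters on chromosome 19 outside the ZNF genes, against 37.4% and 34.9% on the other chromosomes, and AP-1 matches in 2.95% and 4.90% against 2.90% and 4.54%. These gaps were not tested against each other. Over the promoters of all 15842 coding genes in the table, 58.5% held an SP1 match, 14.2% an ETS match, 36.4% an NF-Y match and 3.66% an AP-1 match. CRE matches were found in 2.59% of all promoters, NRF1 matches in 4.26% and E-box matches in 8.88%, and in 3.15%, 5.15% and 8.93% of those outside the ZNF genes. None of the motifs contains another, and a match is a description of the sequence and not a bound site.

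The density of accessible regions was the highest of the 23 chromosomes compared (1 to 22 and X, with chromosome 19 taken without its ZNF genes). The 3 DMSO samples had 55.5, 61.7 and 58.1 peaks per Mb of the 51.1 Mb outside the ZNF genes, and the APH samples 60.4, 63.4 and 57.5. The rest of the genome had 21.1, 24.8 and 20.6 in DMSO and 25.7, 27.2 and 22.5 in APH. The density was 2.52 times that of all other chromosomes and 1.45 times that of chromosome 17, the next most gene-dense, and was higher in 6 of 6 samples in both comparisons (exact sign-flip permutation test over the samples, two-sided, p = 0.03125, the smallest that 6 samples allow). It was 1.95 times that of chromosome 22 and 1.22 times that of the ZNF genes of the same chromosome, again in 6 of 6 samples. Altogether 11 such comparisons were made, and each had p = 0.03125 after Benjamini-Hochberg adjustment as well (exact sign-flip permutation test). These p-values cover only the spread between the 6 samples of a single cell line and not the spread among chromosomes.

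**Figure D1:**
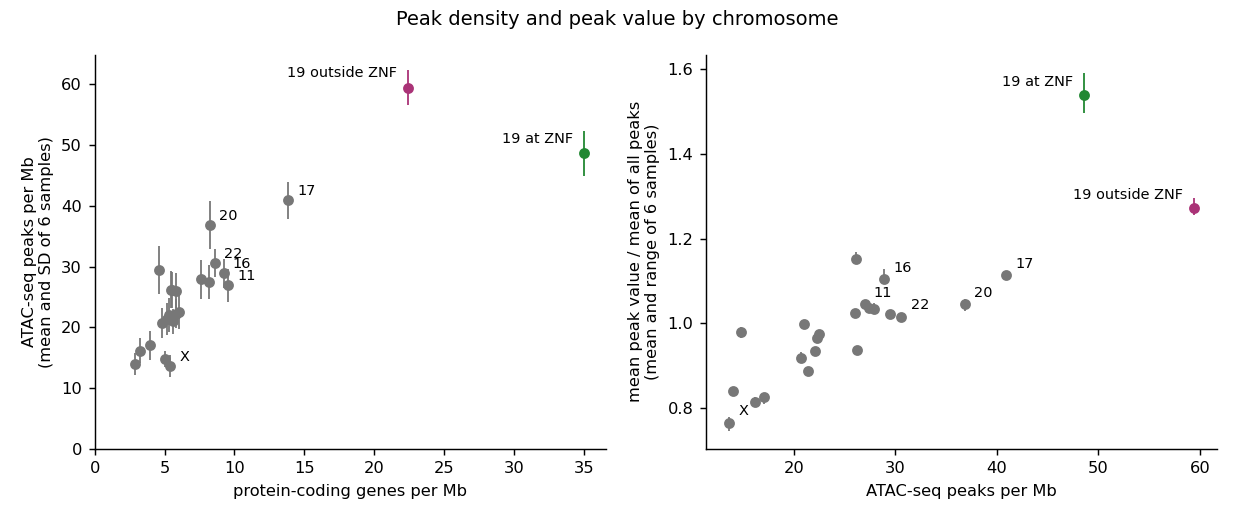
Left, ATAC-seq peaks per Mb (mean and SD of the 6 samples) against protein-coding genes per Mb for each chromosome, with chromosome 19 divided into the part outside ZNF genes (purple) and at ZNF genes (green). Right, mean peak value relative to all peaks of the sample (mean and range of the 6 samples) against peaks per Mb. The part outside ZNF genes lies highest in peaks per Mb, at 59.4, and second in value, at 1.27, to the part at ZNF genes.

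Against other chromosomes the high density went with a high number of genes, but not against the part at ZNF genes. There were 22.4 coding genes per Mb outside the ZNF genes, against 6.13 on all other chromosomes. With 2.66 peaks per coding gene this part of chromosome 19 ranked second lowest of 23, after X with 2.52. The part at ZNF genes, with 35.0 coding genes and 48.6 peaks per Mb, was not ranked and had 1.39 peaks per coding gene. The other chromosomes together had 3.86 peaks per coding gene and chromosome 17 had 2.96. The peaks of chromosome 19 outside the ZNF genes were thus dense per Mb and few per gene.

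The peaks outside the ZNF genes were also stronger than peaks elsewhere. Their mean relative value was 1.29, 1.30 and 1.26 in DMSO and 1.26, 1.27 and 1.26 in APH, the highest of the 23 chromosomes and followed by chromosome 9 with 1.15. Relative to all other chromosomes the value was 1.29 times as high, and it was higher in 6 of 6 samples for promoter peaks (1.15 times), peaks in gene bodies (1.30 times) and intergenic peaks (1.27 times; exact sign-flip permutation test, adjusted p = 0.03125 for each). Against the peaks at ZNF genes of the same chromosome it was 0.827 times as high and lower in 6 of 6 samples (exact sign-flip permutation test, adjusted p = 0.03125). When medians were used in place of means, the value against other chromosomes was 0.48 on the log2 scale in place of 0.37, and among the stronger peaks, those not below the median of all peaks, it was 0.13. In the DMSO samples 14.7% to 15.7% of the peaks belonged to the strongest 10% of their sample, and in the APH samples 15.6% to 16.4%.

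A peak was classed as a promoter peak when its midpoint lay within 1 kb of a gene start of any kind, as a gene body peak when it lay elsewhere inside a gene, and otherwise as intergenic. Promoter peaks made up 27.1, 25.5 and 27.3% under DMSO and 25.9, 25.1 and 27.9% in APH, so the conditions overlapped (exact permutation test, two-sided, p = 0.9). In the rest of the genome the shares were 20.6% to 23.2% and 19.3% to 21.8%. Gene body peaks came to 47.8 ± 0.80% under DMSO against 48.4 ± 0.788% under APH, and intergenic peaks to 25.5 ± 0.516% and 25.3 ± 0.678% (SD, n = 3). The number of promoter peaks stood between 769 and 820 in all 6 samples, while the number in gene bodies ranged from 1334 to 1587.

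Counted by gene, 587 of the 1143 coding genes (51.4%) had a promoter peak in all 6 samples, 95 in some and 461 (40.3%) in none. On the other chromosomes 55.8% of coding genes had a peak in all 6 samples, on chromosome 17 58.4%, on chromosome 22 59.0% and among the genes at the ZNF genes of chromosome 19 71.6%. The share was lower also among promoters of like GC content. Among promoters of 60 to 70% GC, 57.6% of the 415 on chromosome 19 had a peak in all 6 samples and 71.4% of the 4837 on other chromosomes, and above 70% GC the shares were 66.5% of 239 and 73.2% of 3882. Per sample the share of genes with a promoter peak lay between 55.0% and 56.4% and did not separate the conditions (exact permutation test, p = 0.8).

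The gene lists differed in how many of their members had a promoter peak. Of 99 genes in the lists of replication, repair and chromatin, of transcription factors, of ribosomal proteins and of growth, stress and cell death, 80 (80.8%) had a promoter peak in all 6 samples. These lists also hold genes used in few tissues, such as KLF1 and CRX. Of 119 genes of 10 tissue-restricted clusters, 4 (3.36%) had one in all 6 samples, 9 in some and 106 in none. No peak was found at any of 10 SIGLEC, 17 leukocyte receptor (LILR and KIR) or 9 NLRP genes, and of 22 CEACAM and PSG genes CEACAM19 had a peak in a single APH sample. Of the 4, KLK10, OR7D2 and CYP4F12 had weak peaks. KLK10, a kallikrein protease, had relative values of 0.449, 0.480 and 0.531 in DMSO and 0.592, 0.483 and 0.741 in APH. The olfactory receptor gene OR7D2 had 0.373, 0.565 and 0.396 in DMSO and 0.549, 0.607 and 0.497 in APH. For both genes the values of the conditions overlapped. APOC1, an apolipoprotein, stood at 1.12 to 1.43 in DMSO and 1.06 to 1.11 in APH (limma adjusted p = 0.501). CYP4F12, a fatty acid hydroxylase, had a promoter peak in every sample, and its main region was found in 5 of them at 0.278 to 0.468. The study kept only uniquely mapped reads. Whether reads could be placed uniquely at the genes of the tissue-restricted clusters was not tested.

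Along the chromosome, windows with more coding genes other than ZNF held more peaks. Windows of 1 Mb held a median of 56.5 peaks. Over 59 windows, which share the same 6 libraries, the number of peaks had a Spearman rho of 0.882 with the number of non-ZNF coding genes. With the number of ZNF genes the rho was -0.337, where peaks at ZNF genes were not counted. Most peaks lay between 48 and 49 Mb, with a mean of 116 peaks and 40 non-ZNF coding genes. The next were at 1 to 2 Mb with 115 peaks, 18 to 19 Mb with 106, and 17 to 18 Mb and 45 to 46 Mb with 99 each. The window with most genes, 49 to 50 Mb, had 55 such genes and 97.7 peaks of a mean relative value of 1.73. The window at 24 to 25 Mb held a mean of 0.667 peaks, the 2 windows from 25 to 27 Mb, at the centromere, held none, and those at 30 to 31 Mb and 27 to 28 Mb had 2.83 and 4.5.

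**Figure D2:**
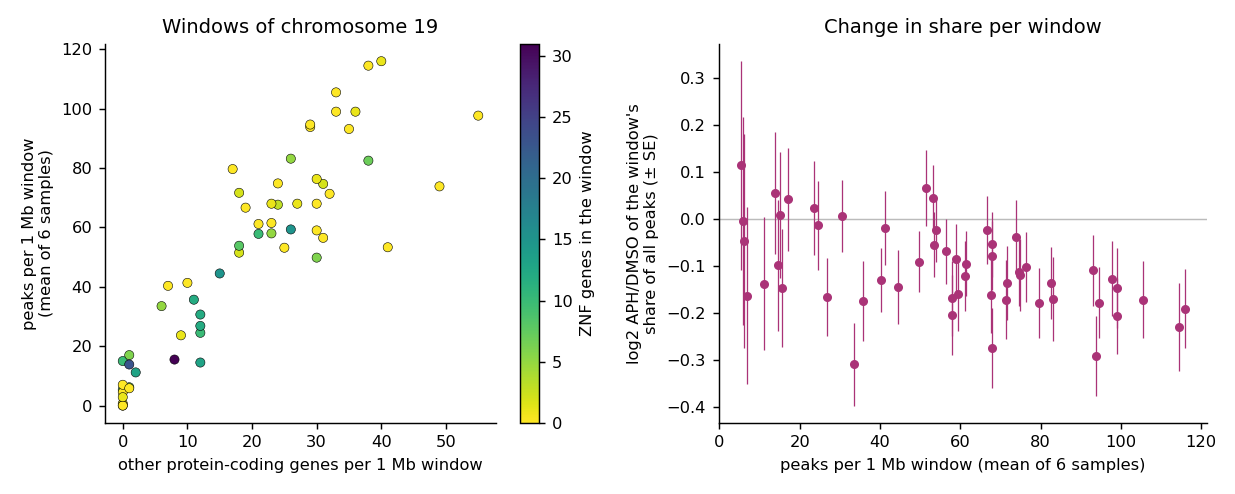
Left, peaks outside ZNF genes per 1 Mb window of chromosome 19 (mean of 6 samples) against the number of other protein-coding genes, coloured by the number of ZNF genes in the window. Right, the log2 ratio of APH to DMSO of each window's share of all peaks (± SE) against its mean number of peaks. Of 54 windows tested, 46 (85.2%, against 47.8% in the whole genome) lie below 0 and 8 above. None passed the adjusted test in the fit without a block for the replicate number.

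The regions were next sorted by the samples in which they had a peak. Of the 4000 regions, 2232 (55.8%) had a peak in all 6 samples, against 48.8% of all regions. APH samples alone had a peak in 492 regions (12.3%, against 18.5% in the whole series) and DMSO samples alone in 358 (8.95%, against 7.03%). Of the promoter regions 73.7% were found in all 6 samples, against 78.4% on other chromosomes. For gene body regions the shares were 48.9% and 42.4%, and for intergenic regions 54.2% and 43.7%. The median widths of the shared promoter, gene body and intergenic regions were 730, 452 and 431 bp, against 833, 416 and 415 bp elsewhere. These shares are descriptions and were not tested.

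The strongest shared region was not at a coding gene start. It lay at chr19:19776203-19776932, outside coding genes and 43456 bp from the nearest coding start, that of ZNF14, and had relative values of 6.77, 9.09 and 7.34 in DMSO and 8.31, 9.37 and 7.03 in APH. The second, at TOMM40, the channel of the mitochondrial import machinery, had 6.57, 7.92 and 6.12 in DMSO and 6.84, 6.98 and 5.96 in APH. FEM1A, a substrate receptor of cullin ubiquitin ligases, had 6.44, 7.77 and 5.98 in DMSO and 6.93, 7.70 and 5.54 in APH. In all 3 regions the conditions overlapped. AP2A1 (a subunit of the AP-2 clathrin adaptor), TMEM160 and CIC (the repressor capicua) also stood above 6 times the mean peak in the average of the 6 samples, as did a region in the body of HNRNPL, a splicing regulator. KHSRP, an RNA-binding protein of mRNA decay and splicing, had 6.64, 7.07 and 6.81 in DMSO and 6.19, 6.19 and 5.99 in APH, and all 3 APH values were lower. CNOT3, a subunit of the CCR4-NOT deadenylase, had 6.52, 7.22 and 6.14 in DMSO and 5.89, 6.01 and 5.83 in APH, again without overlap. Neither passed the adjusted test (limma with Benjamini-Hochberg adjustment, adjusted p = 0.431 for KHSRP and 0.449 for CNOT3). The widest regions spanned 1798 to 2498 bp. The widest of all lay outside coding genes 8207 bp from the start of RPS9, with 1.75, 1.80 and 1.58 in DMSO and 2.37, 2.26 and 2.005 in APH (adjusted p = 0.226). Another was shared by the starts of MBOAT7 and TSEN34, with 5.93, 6.40 and 5.44 in DMSO and 4.72, 4.71 and 5.15 in APH (adjusted p = 0.246).

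APH and DMSO were then compared for the share of chromosome 19 in each sample. The share of peaks outside ZNF genes was 4.30, 4.08 and 4.60% for the DMSO samples and 3.87, 3.83 and 4.19% for the APH samples, so that 1 APH sample lay above 1 DMSO sample (log2 difference -0.13, exact permutation test, two-sided, p = 0.2). The difference was -0.08 without DMSO replicate 3, and -0.17 with no overlap without DMSO replicate 2 or without APH replicate 3. Of the 5 other chromosomes compared, 3 had a lower share of peaks in every APH sample. Chromosome 17 held 4.78 ± 0.131% under DMSO against 4.498 ± 0.105% under APH, chromosome 16 3.63 ± 0.0733% against 3.46 ± 0.0599% and chromosome 21 0.973 ± 0.0118% against 0.905 ± 0.0131% (SD, n = 3), each without overlap (exact permutation test, p = 0.1). Chromosome 22 held 2.17 ± 0.0721% and 2.07 ± 0.0409%, with overlap (exact permutation test, p = 0.2). Chromosome 18 held 1.76 ± 0.0402% and 1.76 ± 0.0373% (exact permutation test, p = 1). The regions of chromosome 19 held 4.46, 4.29 and 4.68% of the covered length in DMSO and 4.10, 4.07 and 4.38% in APH, again with overlap (log2 difference -0.10, exact permutation test, p = 0.2). This too was smaller without DMSO replicate 3 (-0.06), and the overlap went without DMSO replicate 2 or APH replicate 3 (-0.13 each). Of the summed signal, the value times the length of each peak, they held 5.52, 5.48 and 5.68% in DMSO and 5.08, 5.11 and 5.28% in APH. Here the conditions did not overlap (log2 difference -0.11, exact permutation test, p = 0.1). The length covered, in kb, was 1327 ± 11.3 with DMSO against 1323 ± 19.7 with APH (SD, n = 3), a difference with p = 0.8 in the exact permutation test. With the same number of strongest peaks taken from each sample the log2 difference in the share of peaks was -0.04, and in the share of signal it was -0.09, without overlap. The share of promoter peaks among them was then higher in all 3 APH samples (0.05 on the log2 scale, exact permutation test, p = 0.1).

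**Figure D3:**
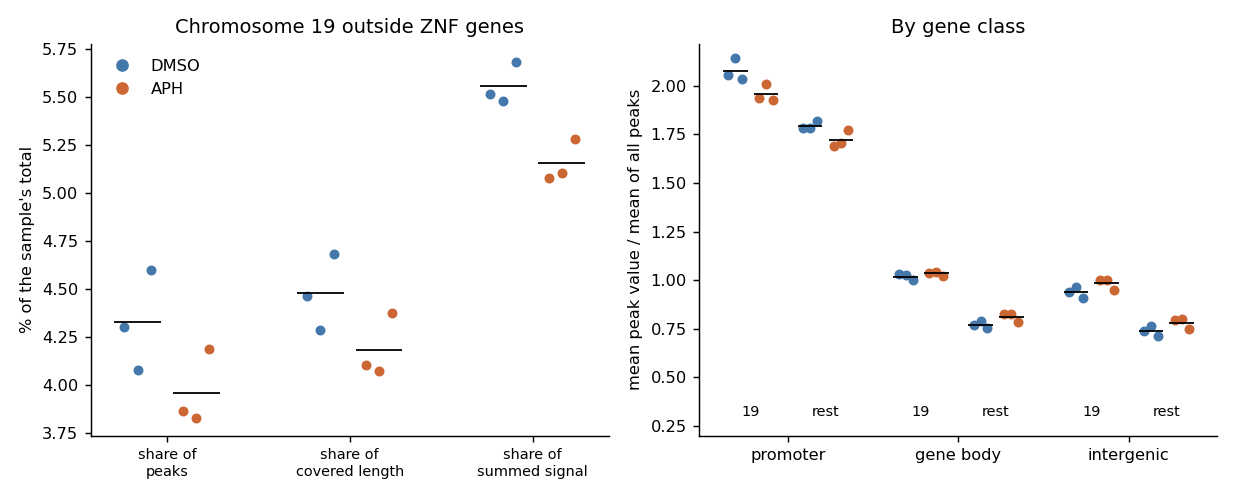
Left, share of each sample's peaks, covered length and summed signal (%) held by chromosome 19 outside ZNF genes, with 1 point per sample and the mean of each condition as a line. Right, mean peak value relative to all peaks of the sample by gene class, for chromosome 19 outside ZNF genes ("19") and the rest of the genome ("rest"). The conditions separate in the share of signal (5.48 to 5.68% in DMSO, 5.08 to 5.28% in APH) and in the promoter values, and the latter also in the rest of the genome.

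The mean value as deposited was 100.6, 110 and 105 in DMSO and 87.6, 93.0 and 89.3 in APH, lower in all 3 APH samples (exact permutation test, p = 0.1). Over all peaks of the genome the DMSO samples averaged 82.2 ± 3.55 and the APH samples 71.2 ± 1.79 (SD, n = 3), also without overlap. Relative to all peaks the difference was -0.02 on the log2 scale (exact permutation test, p = 0.3). It was -0.07 with the same number of peaks per sample (exact permutation test, p = 0.2) and -0.0016 among peaks not below the median. With 1 sample left out it ran from -0.0092 without DMSO replicate 2 to -0.03 without DMSO replicate 3, where the conditions did not overlap. By class, the promoter peaks had relative values of 2.06, 2.14 and 2.03 in DMSO and 1.94, 2.01 and 1.93 in APH, without overlap (exact permutation test, p = 0.1). Promoter peaks of the rest of the genome had 1.78, 1.78 and 1.82 in DMSO and 1.69, 1.71 and 1.77 in APH, also without overlap. Against the promoters of the whole genome the log2 difference was -0.03 (exact permutation test, p = 0.6). Gene body peaks stood at 0.999 to 1.03 in DMSO and 1.02 to 1.04 in APH and intergenic peaks at 0.908 to 0.967 and 0.952 to 1.001, and these overlapped.

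Region by region, the 2232 shared regions were compared within the fit of all 50150 shared regions. No region passed the adjusted p of 0.05 (limma with Benjamini-Hochberg adjustment), among those outside ZNF genes or in the whole series (background 0%). This fit had no block for the replicate number. With that replicate block regions were called in both directions, as given at the end. Under an unadjusted p of 0.05, 131 regions (5.87%) were higher in APH, against a background of 14.3% of all shared regions, and 73 (3.27%) lower, against 1.18%. With 1 sample left out these counts moved. The number higher ran from 53 without APH replicate 2 (2.37%, background 6.58%) to 207 without APH replicate 3 (9.27%, background 24.0%). It was 54 (2.42%, background 7.11%) without APH replicate 1 and 58 (2.60%, background 7.92%) without DMSO replicate 1. It was 83 (3.72%, background 8.16%) without DMSO replicate 3 and 185 (8.29%, background 22.4%) without DMSO replicate 2. The number lower ran from 32 without APH replicate 1 (1.43%, background 0.469%) to 116 without APH replicate 3 (5.20%, background 2.45%). It was 43 (1.93%, background 0.724%) without APH replicate 2 and 44 (1.97%, background 0.698%) without DMSO replicate 1. It was 63 (2.82%, background 1.04%) without DMSO replicate 3 and 92 (4.12%, background 1.91%) without DMSO replicate 2. In each of the 6 fits without 1 sample the share higher was below that of all shared regions and the share lower above it. All 3 APH values lay above all 3 DMSO values in 236 regions (10.6%, background 16.9%) and below them in 169 (7.57%, background 3.33%). The median log2 ratio of APH to DMSO was 0.03, against 0.15 over all shared regions. Centred on the median of each sample, 32 regions (1.43%, background 6.15%) were higher at an unadjusted p of 0.05 and 454 (20.3%, background 9.78%) lower (no adjusted call among the regions outside ZNF genes). The split between directions thus depended on the scaling.

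The regions of chromosome 19 are stronger than most, and strong regions had lower ratios than weak ones all over the genome. The shared regions were therefore divided into 10 groups of equal size by mean value. In each of the 10 groups the median ratio outside ZNF genes was below that of the other regions, by 0.04 to 0.18 on the log2 scale. It was 0.23 against 0.30 in the weakest group, 0.06 against 0.24 in the fourth and -0.09 against -0.03 in the strongest. Averaged over the groups, the regions stood 0.06, 0.01 and 0.10 above other regions of the same strength in DMSO and at -0.06, -0.06 and 0.01 in APH. The difference was -0.09, and the lowest DMSO sample lay just under the highest APH sample (exact permutation test, p = 0.2). The DMSO sample with most peaks had the lowest value of its group and the APH sample with fewest peaks the highest, and the part of the number of peaks in the result was not tested. Without either of these samples the conditions did not overlap (-0.12 and -0.11). For promoter regions the values were 0.04, 0.06 and 0.05 in DMSO and 0.00, 0.02 and -0.01 in APH, without overlap (difference -0.05, exact permutation test, p = 0.1). The difference was -0.05 without overlap also with groups by strength and GC content of the promoter. Gene body and intergenic regions differed by -0.12 each, with overlap (exact permutation test, p = 0.2 for both).

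**Figure D4:**
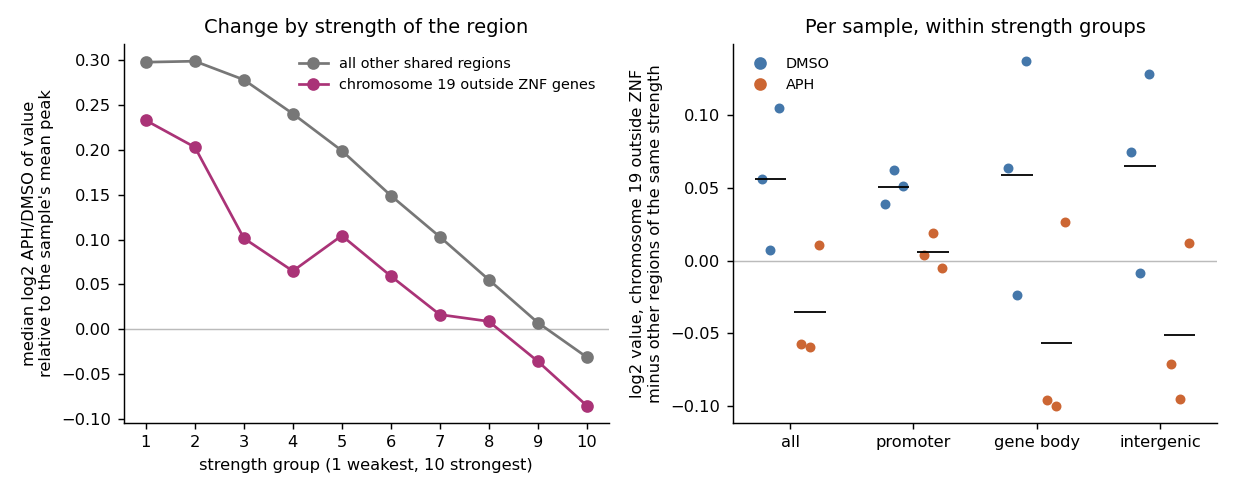
Left, median log2 ratio of APH to DMSO of the value relative to the sample's mean peak, by strength group from weakest (1) to strongest (10), for chromosome 19 outside ZNF genes (purple) and all other shared regions (grey). Right, per sample, the log2 value of chromosome 19 outside ZNF genes minus that of other regions of the same strength, with the mean of each condition as a line. The purple line runs below the grey one in all 10 groups, and the conditions separate for promoters only.

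The values by gene class and GC content above, and the comparisons of strength-adjusted values that follow, were added after the data were seen. Some other chromosomes had similar values. Adjusted for strength, the difference between APH and DMSO was -0.09 for chromosome 19 outside ZNF genes, the second lowest of 23 chromosomes. The neighbours in that order were chromosomes 21 (-0.09), 22 (-0.07), 17 (-0.06) and 16 (-0.05). Chromosome 8 stood highest at 0.09, and the remaining ones lay between -0.02 (chromosome 14) and 0.03 (chromosome 9). The conditions did not overlap on chromosomes 21, 22 and 16 (exact permutation test, p = 0.1 each). They overlapped on chromosome 17 and on chromosome 19 outside ZNF genes (exact permutation test, p = 0.2 each). Set directly against regions of chromosome 22 or chromosome 17 of the same strength, the difference was -0.03 in each case, with overlap (exact permutation test, p = 0.2). Peaks at the ZNF genes of chromosome 19 differed by -0.08 from other chromosomes, without overlap (exact permutation test, p = 0.1). In 1 Mb windows of at least 20 coding genes, regions of other chromosomes differed by -0.05 from regions of less gene-dense windows, with overlap (exact permutation test, p = 0.2). Against those windows the regions of chromosome 19 windows with at least 20 coding genes stood at 0.02, 0.02 and 0.05 in DMSO and at -0.03, -0.03 and -0.000167 in APH, without overlap (difference -0.05, exact permutation test, p = 0.1).

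Of the 54 windows of 1 Mb with a mean of at least 5 peaks, 46 (85.2%) had a lower mean log2 share of all peaks in APH than in DMSO and 8 a higher one, against 47.8% of all windows of the genome with a lower one. None passed an adjusted p of 0.05 in the fit of all 2539 windows of the genome (limma with Benjamini-Hochberg adjustment). In the whole genome none passed either (background 0%). That fit too had no replicate block, with which windows were called, as given at the end. Under an unadjusted p of 0.05, 11 windows (20.4%) were lower, against 4.10% of all windows, and 0 were higher, against 6.54%. The smallest p stood at 34 to 35 Mb, with 36, 34 and 35 peaks under DMSO against 36, 32 and 28 under APH (log2 difference -0.31 ± 0.09 SE, limma adjusted p = 0.215). At 47 to 48 Mb there were 68, 72 and 71 peaks in DMSO and 63, 66 and 68 in APH (-0.27 ± 0.08 SE, adjusted p = 0.241). When the samples were cut to the same number of peaks, 4 of 51 windows (7.84%) were lower at the unadjusted threshold, close to the 6.08% of all windows. Centred on the median over windows, 17 of 54 (31.5%, against 6.58% of all windows) were lower. With a mean of at least 20 peaks per window, 14 of 44 (31.8%, against 6.22%) were. The count of 11 also rested on single samples. It was 3 without DMSO replicate 3, APH replicate 1 or APH replicate 2, 5 without DMSO replicate 1, 20 without DMSO replicate 2 and 21 without APH replicate 3, against 2.40 to 5.71% of all windows.

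None of the gene promoters named below passed the adjusted test without the replicate block, and the values are given as a description. The lists were chosen with earlier results of these data known. Over all promoter regions shared by the 6 samples the median ratio was -0.03 and over those outside ZNF genes -0.09, and 81.8% of all shared promoter regions lay below the median of all shared regions. Of the promoter regions outside ZNF genes 61.7% lay below the median of all promoter regions, the background for the lists.

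Of 23 genes of DNA replication, repair and chromatin, 22 had a promoter peak in all 6 samples, and the median log2 ratio of their regions was -0.16, with 20 of the 22 below the median of all promoter regions. SIRT2, a deacetylase, had the strongest promoter, at 5.04 to 6.15 over the 6 samples. CARM1, an arginine methyltransferase that acts on histone H3, had relative values of 2.62, 2.39 and 3.22 in DMSO and 1.44, 1.67 and 2.31 in APH (log2 ratio -0.62 ± 0.17 SE, limma adjusted p = 0.188). POLD1, the catalytic subunit of DNA polymerase delta, had 2.51, 3.33 and 2.88 in DMSO and 2.04, 2.43 and 2.27 in APH (-0.36, adjusted p = 0.235). POLRMT, the mitochondrial RNA polymerase, had 2.98, 3.25 and 2.73 in DMSO and 2.25, 2.38 and 2.32 in APH (-0.36, adjusted p = 0.206). In these 3 genes all APH values were lower than all DMSO values. For the maintenance methyltransferase DNMT1 the conditions were also apart, at 1.89 to 2.08 and 1.65 to 1.72, whereas those of LIG1, the replicative ligase, overlapped at 2.85 to 3.14 and 2.75 to 2.91. UHRF1, which recruits DNMT1 to replicated DNA, had a peak in 5 samples and none in APH replicate 1.

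Of 30 transcription factor genes, 20 had a promoter peak in all 6 samples, 5 in some and 5 in none, and the median ratio was -0.21, with 16 of 20 below the median of all promoter regions. The genes without a peak were KLF1, ETV2, CRX, LYL1 and HIF3A, factors of blood, vessel, retina and hypoxia biology. GATAD2A, a subunit of the NuRD complex, was strongest, at 3.61 to 5.10. JUNB, an AP-1 subunit, had 3.20, 3.32 and 3.44 in DMSO and 2.50, 2.98 and 2.94 in APH, without overlap (-0.25, limma adjusted p = 0.316). JUND, another AP-1 subunit, had the lowest ratio, -0.45, but its values overlapped, with 2.02, 1.69 and 2.32 in DMSO and 1.22, 1.33 and 1.93 in APH (adjusted p = 0.266). USF2 had the highest ratio, 0.07. At FOSB, the AP-1 subunit induced early by growth factors, a promoter region had a peak in the DMSO samples only, at 1.52, 1.34 and 1.56. The nearest region with a peak in all 3 APH samples was 945 bp away, and 1 APH sample had another promoter peak.

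Of 13 ribosomal protein genes, 12 had a promoter peak in all 6 samples, with a median ratio of -0.16 and 10 of 12 below the median of all promoter regions. RPS28 had the weakest, at 1.47 to 2.35 over all samples. The ratios ran from -0.23 for RPS19, with 3.79, 3.69 and 3.20 in DMSO and 3.08, 3.31 and 2.75 in APH, to 0.08 for RPL18.

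Of 33 genes of growth, stress and cell death, 26 had a promoter peak in all 6 samples, with a median ratio of -0.12 and 19 of 26 below the median of all promoter regions. CIC was strongest, at 5.79 to 6.85, followed by the small GTPase gene RRAS, with 6.42, 6.32 and 6.38 in DMSO and 5.71, 6.04 and 5.85 in APH (adjusted p = 0.555). BSG, the membrane glycoprotein basigin, had the highest ratio, with 1.502, 1.59 and 1.61 in DMSO and 2.02, 1.92 and 1.77 in APH (0.28, limma adjusted p = 0.307). KEAP1, the sensor of oxidative stress, had the lowest, with 1.38, 1.21 and 1.58 in DMSO and 0.934, 0.921 and 1.39 in APH, with overlap (-0.38, adjusted p = 0.334). MAP2K7, a kinase of the JNK pathway, had 2.54, 2.79 and 2.77 in DMSO and 2.18, 1.99 and 2.18 in APH, without overlap (-0.35, adjusted p = 0.216). GDF15, a cytokine of the stress response, had a weak promoter peak in the 3 APH samples, at 0.600, 0.563 and 0.557, and none in DMSO, and the nearest region with a peak in all DMSO samples was 2075 bp away. No promoter peak was found at EPOR, NOTCH3, PLK5, AURKC, CD70 or FGF22.

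**Figure D5:**
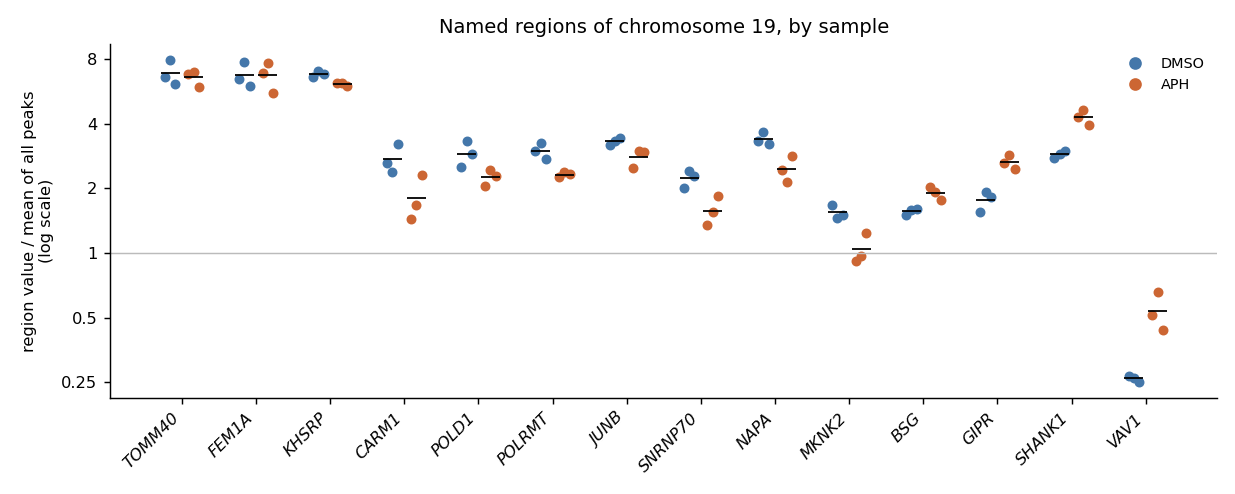
Value of 14 named regions relative to the mean of all peaks of the sample (log scale), with 1 point per sample in order of replicate and the mean of each condition as a line. The strong promoters of TOMM40 and FEM1A overlap between conditions, CARM1, POLD1, POLRMT, JUNB, SNRNP70, NAPA, MKNK2 and KHSRP are lower in all APH samples and BSG, GIPR, SHANK1 and VAV1 higher. CARM1, SNRNP70, NAPA, MKNK2, GIPR, SHANK1 and VAV1 were picked by their p from these same values. The grey line marks the mean peak.

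Outside the lists, the smallest p among regions lower in APH stood at the promoter of NAPA, the vesicle fusion factor alpha-SNAP, with 3.31, 3.67 and 3.23 in DMSO and 2.44, 2.13 and 2.83 in APH (-0.47, limma adjusted p = 0.187). The promoter of MKNK2, a kinase that phosphorylates a translation initiation factor, had 1.68, 1.46 and 1.495 in DMSO and 0.920, 0.965 and 1.24 in APH (-0.58, adjusted p = 0.188). SNRNP70, a protein of the U1 splicing particle, had 2.02, 2.42 and 2.29 in DMSO and 1.35, 1.55 and 1.83 in APH (-0.52, adjusted p = 0.188). CARM1 and a region in the body of PHLDB3 (-0.51) completed the 5 of smallest p.

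The 5 regions of smallest p among those higher in APH were mostly weak and away from starts. In the body of VAV1, a signalling protein of blood cells, the values were 0.268, 0.261 and 0.251 in DMSO and 0.513, 0.657 and 0.436 in APH (1.02 ± 0.20 SE, limma adjusted p = 0.187). Regions outside coding genes near CCL25 (0.92) and NLRP8 (0.94) had values of 0.267 to 0.373 in DMSO and 0.504 to 0.696 in APH. The region in the body of SHANK1, a scaffold of synapses, was strong, with 2.78, 2.90 and 2.99 in DMSO and 4.28, 4.63 and 3.94 in APH (0.57, adjusted p = 0.187). The promoter region of GIPR, the receptor of an incretin hormone, had 1.55, 1.93 and 1.82 in DMSO and 2.63, 2.86 and 2.47 in APH (0.59, adjusted p = 0.187). In all 10 regions the conditions did not overlap, but the regions were picked by their p from these same values. The lack of overlap thus adds nothing to the p. Among all shared regions outside ZNF genes 10.6% were higher (background 16.9%) and 7.57% lower (background 3.33%) without overlap.

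Peaks in all 3 samples of 1 condition and none of the other were few. There were 26 such regions for APH (0.650% of the 4000, against 1.11% in the whole series) and 13 for DMSO (0.325%, against 0.184%). Their median relative values were 0.624 and 0.409, and 8 of the 26 and 3 of the 13 lay within 1 kb of a region with a peak in all 3 samples of the other condition. The strongest for APH, in the body of RPL13A at 2.39, 2.43 and 2.25, was 107 bp from such a region, and that of LENG9, at 1.82, 1.63 and 1.79, 212 bp. The region in the body of ADGRE5, an adhesion receptor, had 1.18, 1.26 and 1.25 and was 1520 bp from the nearest. For DMSO the strongest was at the promoter of TMEM238, at 1.67, 1.54 and 1.65, and 237 bp from a region with a peak in all APH samples. At EEF2, the translation elongation factor, a promoter region had 1.07, 1.19 and 1.001 in DMSO and no peak in APH, and the nearest region of the APH samples was 1448 bp away.

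Near the bound of 1 kb there were few regions. The 18 regions between 1 and 2 kb from a ZNF gene had a median relative value of 0.959 among the 5 found in all samples. The 92 regions less than 1 kb outside a ZNF gene, which were not taken, had 2.07 among 82.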

How the data were processed

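ATAC-seq of RKO cells treated with DMSO (n = 3) or aphidicolin (n = 3) was analysed from the deposited peak lists, 1 per sample. Per the submitters' processing notes, reads were aligned to hg38 with BWA 0.7.12 and peaks were called with MACS2 2.1.0. The authors extended alignments to 200 bp, made coverage maps in bins of 32 nt and gave each peak the mean signal of its bins, so the deposited signal is a mean coverage. No source read here says if read numbers were made equal beforehand, so differences of the deposited level between samples may hold their depth. The depth is unknown, and no interval that needs it is given.

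Values were divided by the mean of all peaks of the sample. Genes were taken from the RefSeq table on GRCh38, and the genome sequence in hand, of another build, was not used. For genes without a listed promoter the strand came from a GENCODE table of another build. The start of these genes was the matching end of the RefSeq gene. Regions with a peak in all 6 samples, and 1 Mb windows with a mean of at least 5 peaks (log2 of peaks plus 1 over all peaks), were fitted over the whole genome with limma 3.58.1 (trend, R 4.3.3) and Benjamini-Hochberg adjustment at 0.05. Single values were compared by exact two-sided permutation tests over samples (Python 3.11.15, numpy 2.4.6, pandas 2.3.3).

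Named regions were the strongest 10, the widest 5, the 5 of smallest p in each direction, the strongest 5 of each condition alone, and in each gene list the genes of highest and lowest value and ratio. The other genes of the lists were named after their values were seen. Some genes that this rule names are not reported here. The members and lists were chosen with earlier results of these data known. Alternatives varied the distance to ZNF genes, the promoter distance, the scaling, the filters, the number of peaks and groups, the replicate block and the samples used.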

Additional observations from a re-analysis of the deposited data

How the results depend on the processing

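For 12 results 152 alternative values were computed, of which 132 kept their direction and their side of the threshold and 4 reversed. Results compared between the conditions by exact permutation test cannot have a p under 0.1, so they could not cross the threshold of 0.05. For these only the direction was open to change. The log2 ratio of APH to DMSO of the promoter share, -0.0206, was 0.0164 with peaks at or above the median value and 0.0486 with an equal number of peaks, and ran from -0.0644 to 0.0135 with 1 sample left out, above 0 without APH replicate 2. The promoter value relative to all promoters, -0.0268, ran from -0.0513 to 0.00289, above 0 without APH replicate 3. The lower signal share held without overlap in all its alternatives, between -0.126 and -0.0902. The number of shared regions called, 0, was 1 with the median peak width as covariate, a lower one (0.0448%, against 0.00997% of all shared regions). With 1 sample left out it was 0 to 3, and 3 without APH replicate 3. Of these 3, 2 were higher (0.0896%, against 0.177% of all shared regions) and 1 lower (0.0448%, against 0.00598%). Windows called stayed at 0 with 1 sample left out. Against other chromosomes the density ran from 1.30 to 1.36 and the value from 0.36 to 0.37 (log2) with 1 sample left out, each with an exact sign-flip permutation p = 0.0625, the smallest that 5 samples allow. These omissions were chosen after seeing the data. The cause of the other changes was not tested.

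The replicate numbers were not taken to pair the samples, since nothing in the labels ties them and not every pair deviated together. The study speaks of 3 independent experiments without saying which samples each held. The deviations of same-numbered samples correlated at -0.00671, 0.475 and 0.513, and DMSO replicate 1 and APH replicate 1 did not correlate best with their own number. With the replicate block 161 shared regions were called, 97 higher and 64 lower, and 15 of 54 windows (27.8%), all lower, against 2.60% of all windows lower and 2.56% higher. In the whole genome the block gave 6505 higher and 582 lower (1.16%) of 50150 regions, and outside ZNF genes the shares were 4.35% and 2.87%.

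Limits are the unknown depth, 3 samples per condition, and peak lists in which a region without a peak has no value, so that shares depend on how many peaks each sample has.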
